A study of Homo sapiens with 2 samples.

Results

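The levels of 53 genes that open replication origins, unwind DNA and copy it at the fork were compared in HepG2 cells given an siRNA against SPRTN or a negative control siRNA. The 53 genes were chosen by name for their roles in origin licensing, the helicase, the polymerases, the clamp, fork protection and chromatin assembly. All 53 were found among the 60448 genes of the deposited table, and all 53 were among the 13203 genes with a mean level of at least 1 FPKM (reads scaled by gene length and by library depth). HepG2 cells are an established line from a human hepatocellular tumour and still make many liver proteins. Both groups were HepG2 cultures reverse-transfected with 40 nM siRNA, left with the transfection mix for 24 h and harvested for RNA at 72 h. The control group received a negative control siRNA and the other group received 1 siRNA (no second sequence was used here) against SPRTN, a protease that clears DNA-protein crosslinks. Each group has 1 library of polyadenylated RNA, so no difference has a replicate check, no p-value across libraries was computed, and intervals cover counting error only. A difference, called the log2 ratio here, is log2(FPKM + 1) with SPRTN siRNA minus log2(FPKM + 1) with control siRNA, and folds are plain ratios of FPKM with their 95% counting interval.

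Replication is prepared in G1, when the origin recognition complex (ORC), CDC6 and CDT1 load the MCM helicase onto DNA. In S phase the kinase CDC7 with its activator DBF4, together with the firing factors, turns the loaded MCM ring into a moving helicase with CDC45 and GINS. Polymerase alpha-primase lays primers, polymerases epsilon and delta extend the strands on the PCNA clamp, and histone chaperones rebuild chromatin behind the fork. Many of these genes are driven by E2F transcription factors and reach their highest mRNA levels around the G1/S transition. In bulk RNA, fewer cells in G1/S and less mRNA in each such cell cannot be told apart.

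An siRNA can also lower other mRNAs whose 3' UTR pairs with positions 2 to 8 of its guide strand, here UAACCAG, read from the siRNA sequence in the series description. The pairing site is the 7-base match CTGGTTA, or CTGGTTAA when an A follows. Of the 53 genes, 6 (11.3%) held the 7-base match in an annotated 3' UTR, against 10.5% of the 11137 tested genes with a 3' UTR. The sites are shown because their genes include both strongly lower ones and one that differed little, and the capitals mark the match. Sequences are from GENCODE release 29 transcripts on GRCh38, 5′ to 3′, and the coordinates are those of the match.
CDC6, chr17:40302752-40302759, plus strand: tttggaggacaCTGGTTAAagaatttattt
CHAF1B, chr21:36417990-36417997, plus strand: tacggtctgttCTGGTTAAatgcatttcca
PRIM2, chr6:57646732-57646739, plus strand: agctttggggaCTGGTTAAagtcccccaga
GINS3, chr16:58405716-58405723, plus strand: ttactaggaacCTGGTTAAgcaagcactaa
RFC3, chr13:33966300-33966306, plus strand: gacccactgtgCTGGTTAggtccacctgct

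The sixth gene with a 7-base match is GINS4. The match lay in 2 of 3 protein-coding transcripts with a 3' UTR for CDC6, in 2 of 3 for GINS3 and RFC3, in 2 of 4 for GINS4, in 1 of 4 for PRIM2 and in the 1 such transcript of CHAF1B. Among the 5 genes printed, 4 carry the 8-base form, and their log2 ratios ran from -0.93 for CDC6 through -0.71 for CHAF1B and -0.67 for PRIM2 to -0.14 for GINS3. RFC3, with the 7-base form, was at -0.48. The 6 genes with a match had a median log2 ratio of -0.69 and the 47 without had -0.47. Over all tested genes with a 3' UTR these medians were -0.23 with the match and -0.05 without. Of the 47 replication genes without the match, 46 had a log2 ratio below 0, as did 56.6% of all tested genes. What part the guide match had in these differences was not tested.

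SPRTN itself, measured at 7.81 FPKM with control siRNA and 2.07 FPKM with SPRTN siRNA, was 3.77-fold lower (3.29 to 4.33) in the library labelled as silenced. The libraries had about 96400000 and 67100000 reads assigned to genes. The 11 hepatocyte markers were all present, with albumin (ALB) at 9997 and 16440 FPKM in the control and SPRTN siRNA libraries. The summed level of 6 endothelial markers was 4.92 and 7.11 FPKM with TEK at 0 in both. Among them CDH5 was at 0.439 and 2.73 FPKM, while TIE1 was at 1.84 and 1.07. The summed level of 7 fibroblast markers was 9.96 and 9.66 FPKM with COL3A1 and DCN at 0 in both, and the level of 6 blood cell markers was 3.92 and 4.61 FPKM with PTPRC and HBB at 0 in both. The 4 nuclear RNAs taken as signs of RNA quality summed to 75.5 FPKM with control siRNA and 192 FPKM with SPRTN siRNA, 3 of 4 being higher, with MALAT1 at 43.2 and 110 FPKM. Mitochondrial genes took 8.70% and 11.5% of reads. The part of these differences in the results below was not tested.

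Replication genes were lower in the SPRTN siRNA library almost without exception. CDC7 alone was higher, and the other 52 genes were below 0, as were 56.6% of all tested genes. The median log2 ratio was -0.47 for the replication genes and -0.05 for all tested genes. At least 1.5-fold lower on the log2(FPKM + 1) scale were 14 genes (26.4%), against 5.62% of all tested genes. These were ORC1, CDC6, MCM5, MCM6, MCM8, DBF4, GINS2, GINS4, POLA2, PRIM1, PRIM2, WDHD1, CLSPN and CHAF1B. None was at least 1.5-fold higher, against 5.04% of all tested genes, and none was at least 2-fold lower, against 0.788%. With the ratios centred on the median gene, 52 of the 53 were still below 0 and 11 were at least 1.5-fold lower. That centring turned the split over all tested genes from 742 lower and 666 higher to 581 lower and 828 higher.

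The 53 genes summed to 2824 FPKM with control siRNA and 2007 FPKM with SPRTN siRNA, or 71.1% of control. The middle of the distribution was narrow, with log2 ratios from -0.60 to -0.36 between the lower and upper quartiles. The counting intervals excluded equality for all 53 genes, and also for 75.7% of all tested genes. The interval of a replication gene reached a median of 0.08 to either side on the log2 scale. Where intervals of separate genes overlap, their order is not resolved at this depth.

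**Figure D1:**
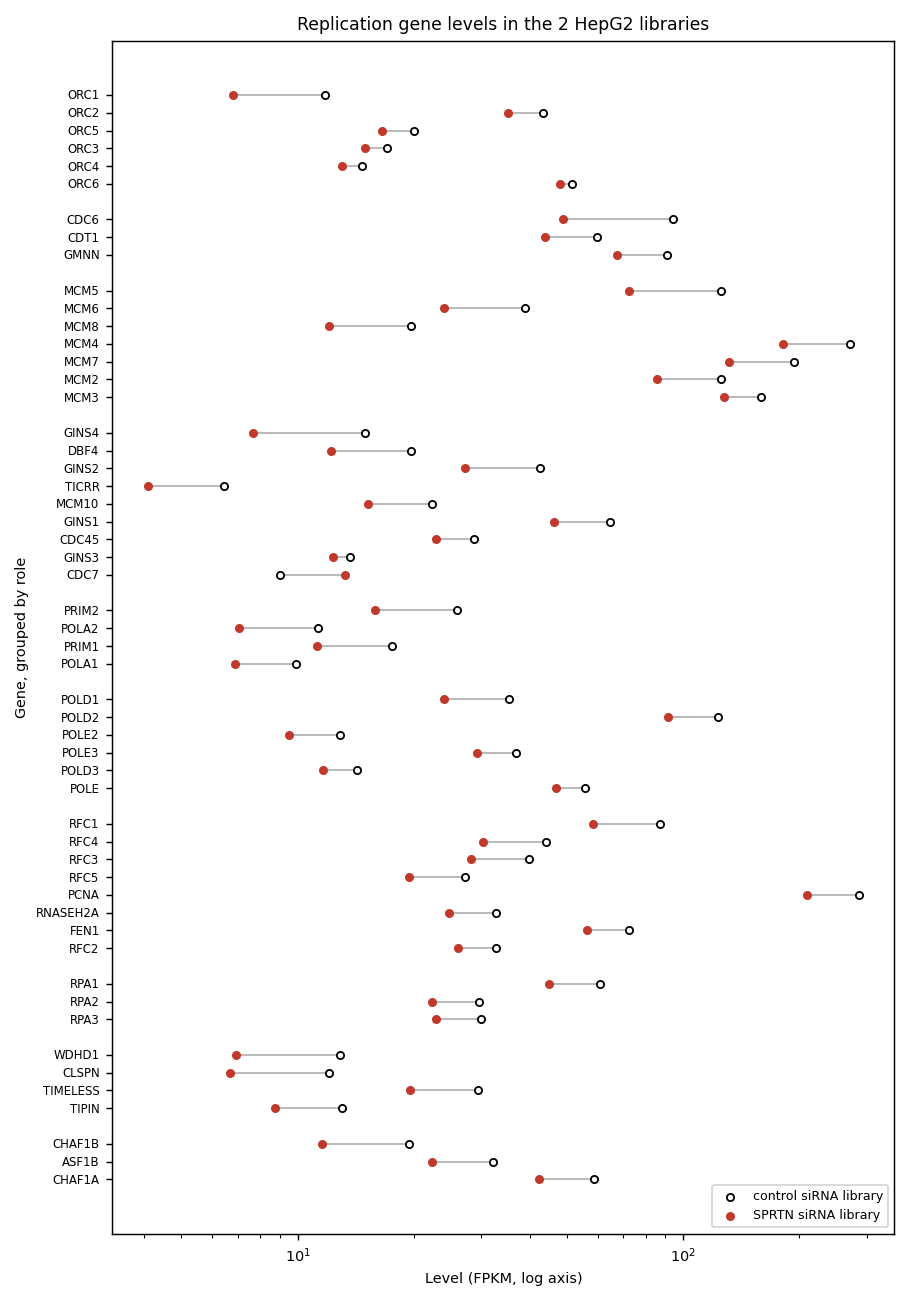
Level of each of the 53 replication genes in the control siRNA library (open circles) and the SPRTN siRNA library (filled circles), in FPKM on a log axis, grouped by role and ordered within a role by log2 ratio; each circle is 1 library. The filled circle lies to the left of the open one for every gene but CDC7, which went from 9.02 to 13.3 FPKM.

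**Figure D2:**
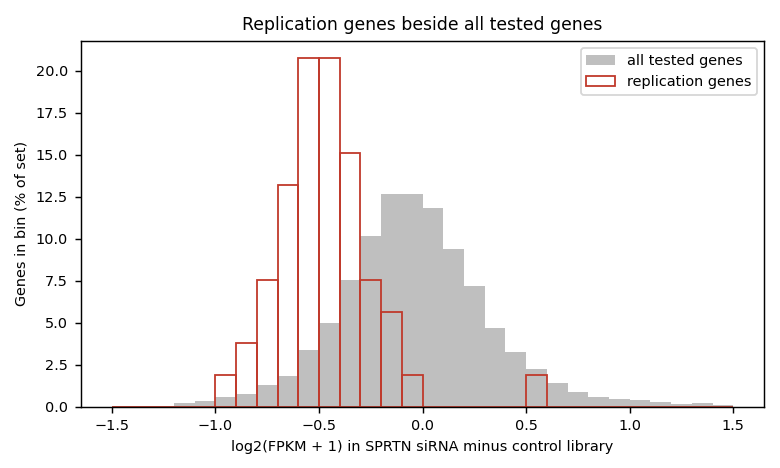
Share of the 53 replication genes (outlined bars) and of the 13203 tested genes (grey bars) in bins of log2(FPKM + 1) difference, SPRTN siRNA minus control; the 69 tested genes beyond -1.5 or 1.5 are not drawn. The replication genes centre on -0.47 and all tested genes on -0.05, and the single outlined bar right of 0 is CDC7.

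The origin recognition complex, which marks origins, differed little except for 1 subunit. ORC1 stood at 11.8 FPKM with control siRNA and 6.78 FPKM with SPRTN siRNA, 1.74-fold lower (1.63 to 1.85). The other 5 subunits were between 1.07-fold and 1.23-fold lower, from ORC6 at 51.5 and 48.0 FPKM to ORC2 at 43.3 and 35.2 FPKM. The interval of ORC1 did not overlap that of ORC2 (1.18 to 1.28), its nearest neighbour. The log2 ratios of the rest were -0.25 for ORC5, -0.18 for ORC3 and -0.16 for ORC4. ORC1 was the lowest subunit in both libraries, and the highest-to-lowest ratio of levels within the complex was 4.37 in the control and 7.08 in the SPRTN siRNA library.

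The licensing factors, which act with ORC to load the helicase, contained the lowest gene on the log2(FPKM + 1) scale. CDC6, the ATPase that completes the loading complex, went from 94.1 to 48.8 FPKM, 1.93-fold lower (1.87 to 1.99), and only 1.18% of tested genes had a smaller log2 ratio. CDT1, which brings the MCM ring to ORC, was at 59.9 and 43.9 FPKM (1.36-fold lower, 1.32 to 1.41). GMNN, which encodes geminin, the inhibitor of CDT1, was at 91.0 and 67.5 FPKM (1.35-fold lower, 1.30 to 1.40). CDT1 and its inhibitor thus differed by nearly the same factor, while the interval of CDC6 lay apart from both. CDC6 is also 1 of the genes with an 8-base guide match printed above.

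All 6 subunits of the MCM ring were lower. MCM4 was at 272 and 182 FPKM in the control and SPRTN siRNA libraries, MCM7 at 194 and 132, MCM3 at 160 and 127, MCM5 at 126 and 72.6, MCM2 at 125 and 85.4, and MCM6 at 39.0 and 24.0. MCM5 was lowest relative to control, at 57.8% of its level there (1.73-fold lower, 1.68 to 1.78), and MCM3 was highest, at 79.8% (1.25-fold lower, 1.23 to 1.28). These intervals did not overlap each other, nor that of MCM4 at 1.49-fold (1.47 to 1.52). MCM2 and MCM5 were nearly level in the control, while in the SPRTN siRNA library MCM2 was the higher. The ring's members are present in equal number in the protein complex. In FPKM, the mRNA of MCM4 exceeded that of MCM6 by 6.97-fold in the control and 7.57-fold in the SPRTN siRNA library. FPKM depends on the length taken for each gene, so ratios between genes are approximate. The 6 subunits summed to 916 and 623 FPKM, 68.1% of control. MCM8, a helicase related to the ring but used in recombination, was at 19.7 and 12.1 FPKM with a log2 ratio of -0.66, and MCM6 was at -0.67.

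Origin firing held genes that differed widely, including the one gene that was higher. GINS4, a subunit of the 4-part GINS complex, went from 14.9 to 7.67 FPKM, 1.95-fold lower (1.79 to 2.12), the largest plain fold of the 53 genes, with an interval that overlapped that of CDC6. Its partner GINS3 was at 13.7 and 12.4 FPKM, 1.11-fold lower (1.02 to 1.20). GINS4 was thus slightly above GINS3 in the control and well below it in the SPRTN siRNA library. Both GINS4 and GINS3 are among the genes with a guide match described above. GINS2 had a log2 ratio of -0.63 and GINS1 of -0.47. CDC45, which completes the active helicase together with MCM and GINS, was at 28.7 and 22.8 FPKM (log2 ratio -0.32). MCM10, which activates the helicase, had a log2 ratio of -0.53, and TICRR, also called Treslin, had -0.55 from a low 6.44 FPKM.

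CDC7 was the one gene on the other side. This kinase gene went from 9.02 FPKM (1481 reads) in the control to 13.3 FPKM (1519 reads) in the SPRTN siRNA library, 1.47-fold higher (1.37 to 1.59), and 93.3% of tested genes had a smaller log2 ratio. DBF4, which encodes the subunit that activates CDC7, went from 19.7 to 12.2 FPKM, 1.62-fold lower (1.51 to 1.73). In FPKM, which depends on the length taken for each gene, DBF4 was thus above CDC7 in the control and slightly below it in the SPRTN siRNA library. CDC7 kept its direction under all 9 alternatives run on the values. It passed the 1.5-fold limit in neither the main analysis nor any of those alternatives.

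**Figure D3:**
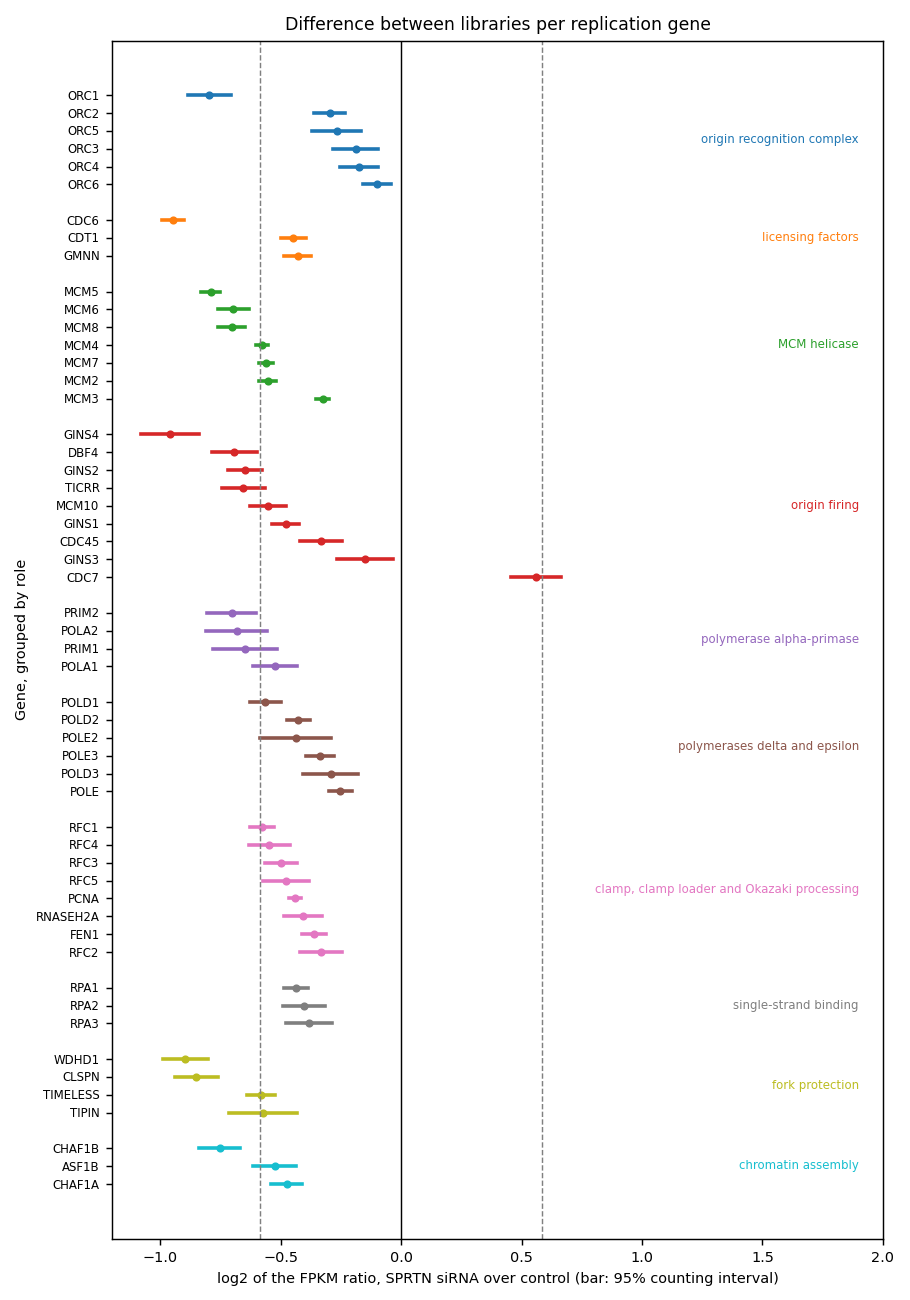
log2 of the FPKM ratio, SPRTN siRNA over control, for each of the 53 replication genes; points are the ratio of 2 libraries, bars the 95% counting interval, colours the role, and dashed lines 1.5-fold in either direction on this plain scale, which TICRR also passes. ORC1 stands apart from the other ORC subunits, CDC6 from CDT1 and GMNN, and CDC7 is the only gene right of 0.

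Polymerase alpha-primase, which starts every new strand, was lower in all 4 subunit genes. The catalytic subunit gene POLA1 went from 9.89 to 6.88 FPKM (1.44-fold lower, 1.35 to 1.53). PRIM2, the large primase subunit, was at 25.9 and 15.9 FPKM (1.63-fold lower, 1.52 to 1.75). The accessory subunit POLA2 had a log2 ratio of -0.61 and the primase catalytic subunit PRIM1 of -0.60. Thus 3 of these 4 genes were at least 1.5-fold lower, against 5.62% of all tested genes. PRIM1 overlaps NACA, a far more abundant gene at 331 and 338 FPKM, and reads at their overlap could belong to either.

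All 6 genes of polymerases delta and epsilon were below 0, the lowest being POLD1 at a log2 ratio of -0.55. None of the 6 was at least 1.5-fold lower, against 5.62% of all tested genes. POLD1, the catalytic subunit of the lagging-strand polymerase delta, was at 35.4 and 24.0 FPKM in the control and SPRTN siRNA libraries (1.48-fold lower, 1.41 to 1.55). POLE, the catalytic subunit of the leading-strand polymerase epsilon, was at 55.8 and 46.8 FPKM (1.19-fold lower, 1.15 to 1.23). The intervals of these catalytic subunits did not overlap. The log2 ratio was -0.42 for POLD2, -0.40 for POLE2, -0.33 for POLE3 and -0.27 for POLD3.

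The clamp, its loader and the enzymes that process Okazaki fragments had log2 ratios from -0.57 to -0.32. PCNA, the sliding clamp and the most abundant of the 53 genes, went from 286 to 210 FPKM, 1.36-fold lower (1.34 to 1.38). RFC1, the large subunit of the clamp loader, was at 87.0 and 58.2 FPKM (1.49-fold lower, 1.44 to 1.55), and RFC2 at 32.8 and 26.0 FPKM (1.26-fold lower, 1.19 to 1.34). RFC4 had a log2 ratio of -0.53, RFC3 of -0.48 and RFC5 of -0.46, and the 5 loader genes kept their order of level in both libraries. The flap endonuclease gene FEN1 had -0.36 and RNASEH2A, the catalytic subunit of RNase H2, -0.39. The genes of the single-strand binding protein RPA differed by similar amounts, with RPA1 at 60.9 and 45.0 FPKM, RPA2 at 29.6 and 22.3, and RPA3 at 29.8 and 22.9. The 3 RPA genes lay between 73.8% and 76.7% of control, and their counting intervals overlapped.

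Fork protection genes had the lowest median of the roles, -0.66 over 4 genes. WDHD1, the human AND-1 protein that ties polymerase alpha to the helicase, went from 12.9 to 6.93 FPKM, 1.86-fold lower (1.74 to 1.99). CLSPN, which encodes claspin, the mediator between the fork and the checkpoint kinase CHK1, was at 12.0 and 6.68 FPKM (1.80-fold lower, 1.69 to 1.92). TIMELESS and TIPIN, which form a complex, had nearly equal log2 ratios of -0.56 and -0.52, with TIPIN at 13.03 and 8.75 FPKM. Among the chaperones that place histones behind the fork, CHAF1B was at 19.5 and 11.5 FPKM (1.69-fold lower, 1.59 to 1.79) and CHAF1A, the large subunit of the same CAF-1 complex, at 58.7 and 42.2 FPKM (1.39-fold lower, 1.33 to 1.45). CHAF1B overlaps MORC3 on the same strand, at 17.5 and 11.4 FPKM (log2 ratio -0.58), and reads at their overlap could belong to either. ASF1B, which hands histones to CAF-1, had a log2 ratio of -0.51.

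Level and transcript length ordered these differences only weakly. Over the 53 genes, Spearman's rho between the log2 ratio and the mean level was 0.09, and with the mean annotated transcript length it was -0.28, both given as descriptions across genes that share the same 2 libraries.

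E2F motifs were common in the promoters of these genes, which were matched by symbol in a RefSeq table (GRCh38.p14) for 47 of the 53. The motif searched on both strands was any of TTTCCCGC, TTTGGCGC, TTTCGCGC and TTTGCCGC, within 250 bases before to 50 bases after the gene start. Matches on opposite strands can overlap, as in the run TTTGGCGCGAAA, and were then counted separately. Only these exact forms were counted, so a promoter without a match can still hold a related sequence. A match was present in 18 of the 47 promoters (38.3%), against 3.3% of all 35116 promoters of this length and 5.6% of the 8884 tested genes with a promoter. The CCAAT box was present in 28 (59.6%) against 37.0% of tested genes, and TTTGAA, the core of the cell cycle homology region found in G2/M promoters, in 2 (4.3%) against 9.6%. CCAAT can overlap the E2F motif, as in MCM7.

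The sequences below show where the matches sit, with E2F matches in capitals. CDC6 is given over its whole 300-base window, as the lowest of the 53 genes, on chr17:40287629-40287928, plus strand.
CDC6: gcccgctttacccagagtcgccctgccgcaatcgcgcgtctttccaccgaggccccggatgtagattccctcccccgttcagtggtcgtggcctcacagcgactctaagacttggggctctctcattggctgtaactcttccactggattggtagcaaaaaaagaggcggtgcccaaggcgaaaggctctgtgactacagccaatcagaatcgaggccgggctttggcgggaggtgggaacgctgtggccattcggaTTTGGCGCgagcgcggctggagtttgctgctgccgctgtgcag

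The other windows are 30 bases around the match nearest to the gene start. MCM3, POLA1 and POLE had the highest log2 ratio of their role and held a match, while MCM6, ORC3 and GINS3 were picked after their values were seen, as a strongly lower gene and 2 that differed little.
MCM6, chr2:135876511-135876540, minus strand: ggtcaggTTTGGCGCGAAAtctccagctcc
MCM3, chr6:52284728-52284757, minus strand: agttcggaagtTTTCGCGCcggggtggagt
POLA1, chrX:24693770-24693799, plus strand: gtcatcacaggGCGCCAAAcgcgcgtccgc
POLE, chr12:132687342-132687371, minus strand: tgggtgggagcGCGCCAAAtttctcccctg
ORC3, chr6:87590112-87590141, plus strand: cgcgagggcgcGCGGGAAAtcccgagtgca
GINS3, chr16:58392455-58392484, plus strand: cgtccccgggcGCGGGAAAcgagtttcaat

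The median difference was nearly the same with and without a match. The 18 genes with an E2F match had a median log2 ratio of -0.48 and the 29 without had -0.47. At least 1.5-fold lower were 6 of the 18 and 6 of the 29, against 5.62% of all tested genes. MCM5 and GINS4, which also passed that limit, had no matched promoter and are in neither set. ORC1, at -0.72, was in the set without a match. MCM6 held 4 matches in its promoter, in 2 overlapping pairs, and ORC3 and GINS3 held 1 each within 10 bases of the start while their log2 ratios were -0.18 and -0.14. CDC7 held neither an E2F match nor a CCAAT box in its window, but the same is true of GMNN and WDHD1, which were lower. Among the other tested genes the median was -0.13 for the 476 with an E2F match and -0.06 for the 8361 without.

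**Figure D4:**
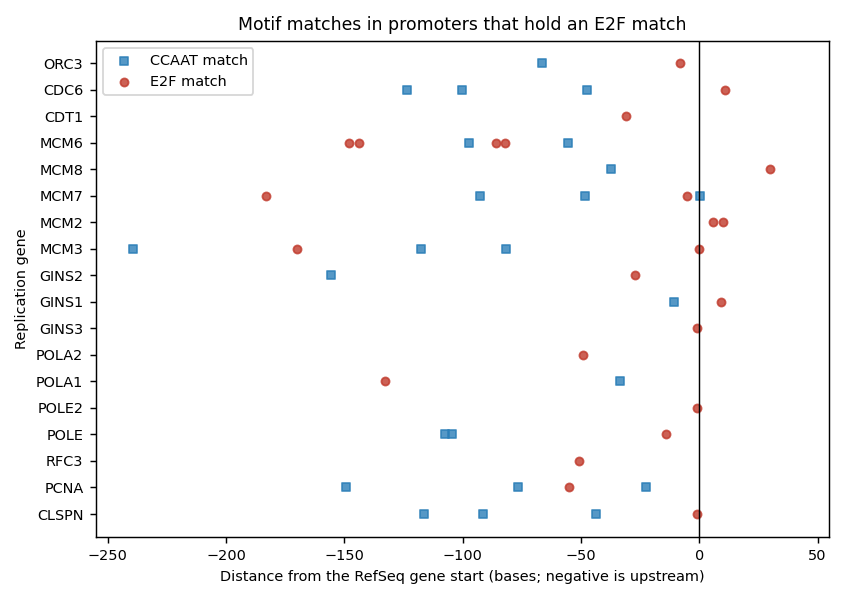
Position of E2F matches (circles) and CCAAT matches (squares) relative to the RefSeq gene start, in bases, in the 18 replication gene promoters with an E2F match; genes are ordered by role and then by log2 ratio. Most E2F matches lie within 60 bases of the start, and CCAAT matches lie mainly upstream of them.

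Several replication genes start back to back with another gene, and the values of both are set side by side here. This comparison was added after the values of the replication genes were seen. Of the annotated neighbours on the opposite strand that start within 1000 bases upstream or overlap the start by under 200 bases, 14 passed the filter of 1 FPKM. The replication gene had the lower log2 ratio in 12 of the 14 pairs, with a median of -0.48 for the replication genes and -0.12 for the neighbours. That is 85.7% of pairs, close to the 85.1% of all tested genes that lay above a replication gene of these pairs on average, so the count says nothing particular about neighbours. ORC1 was at -0.72 and its neighbour PRPF38A, a splicing factor gene, at -0.07. PCNA was at -0.44 and CDS2, a lipid synthesis gene, at -0.06, and MCM2 was at -0.55 and TPRA1 at 0.14. WDHD1 was at -0.81 and SOCS4, a cytokine signalling inhibitor gene, at -0.18.

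In several pairs both genes were lower by similar amounts. MCM4 was at -0.57 beside PRKDC, the DNA-dependent protein kinase gene, at -0.50 (162 and 114 FPKM), and DBF4 at -0.65 beside the mitochondrial carrier gene SLC25A40 at -0.62 (12.95 and 8.08 FPKM). ORC6 was at -0.10 beside VPS35 at -0.15. In the other direction, ORC3 was at -0.18 while RARS2, a mitochondrial arginyl-tRNA synthetase gene, was at -0.55. The starts of DBF4 and SLC25A40 overlap, and no source used here says whether counting used strand, so reads in the overlap could belong to either gene.

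**Figure D5:**
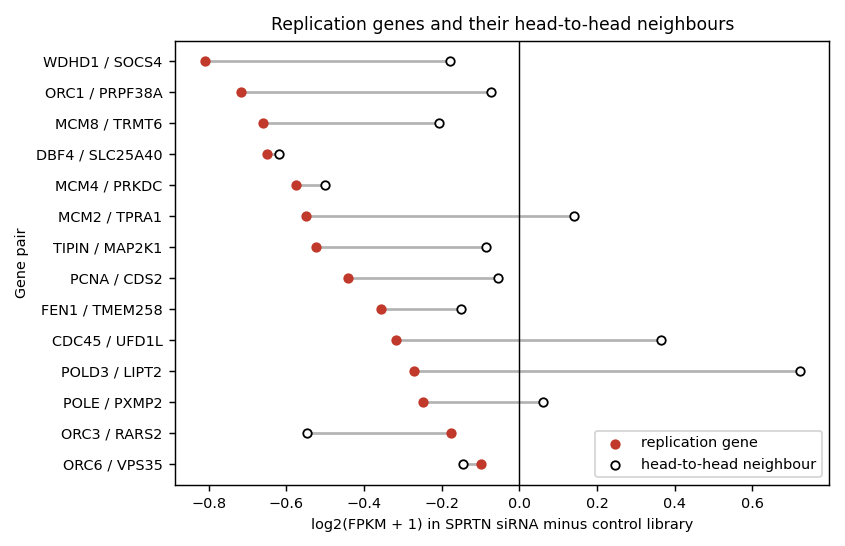
log2(FPKM + 1) difference, SPRTN siRNA minus control, for 14 replication genes (filled) and the gene that starts next to each on the opposite strand (open); each point is a difference between 2 libraries. The filled point is left of the open one in 12 pairs, with ORC3 and ORC6 as the exceptions; 85.1% of all tested genes lay above such a replication gene on average.

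Other genes of replication that are not among the 53 were also lower for the most part. Of 46 such genes, 45 passed the filter, RTEL1 being below it at 0.514 and 0.513 FPKM. Of all tested genes, 56.6% were below 0, 5.62% were at least 1.5-fold lower and 5.04% were at least 1.5-fold higher. Among the 45, the median log2 ratio was -0.39 and 38 were below 0. At least 1.5-fold lower were 11 (24.4%), and 0 were at least 1.5-fold higher. The lowest were UHRF1, which reads hemimethylated DNA behind the fork, at 67.7 and 35.5 FPKM (log2 ratio -0.91), MTBP, the partner of TICRR, at -0.72, DSCC1, a subunit of an alternative clamp loader, at -0.71, the helicase gene PIF1 at -0.68 and TOPBP1, a scaffold of origin firing, at -0.67. The highest, none past 1.5-fold on the log2(FPKM + 1) scale, were POLD4, the smallest polymerase delta subunit, at 0.57 from low levels of 1.56 and 2.80 FPKM (148 and 184 reads, a plain fold of 1.79, 1.43 to 2.23), CHTF18 of the alternative clamp loader at 0.29 and the helicase gene RECQL4 at 0.21.

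The subunits of some complexes differed unequally, an observation made after the values were seen. In polymerase delta, POLD1, POLD2 and POLD3 were lower and POLD4 was higher. In RNase H2, RNASEH2A was at -0.39 and RNASEH2B at -0.61, while RNASEH2C was at 0.06, with a counting interval that included equality (0.993 to 1.09 times control). In the alternative clamp loader, DSCC1 and CHTF8 (-0.65) were lower and CHTF18 was higher.

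Set beside other proliferation genes, the median of the 53 stood between a list of deoxynucleotide supply genes and one of mitotic genes. The 13 supply genes had a median of -0.34 with 3 at least 1.5-fold lower (23.1%), and the 24 mitotic genes had a median of -0.66 with 18 at least 1.5-fold lower. These lists were compared by description only, and the difference between them was not tested.

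The authors' deposited table calls none of the 53 genes, against 4.63% of the tested genes. In the authors' deposited table every called gene differs by a log2 fold change of 1 or more in size, and the lowest among the 53 is that of GINS4 at -0.96. The authors' deposited table gives all 53 an adjusted p below 0.05, the largest being 0.0052 for GINS3, and gives 80.9% of tested genes such a value. Those p-values compare 1 library with 1 library and leave out how far separate cultures vary.

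The counting of 17 of the 53 genes could include reads of an overlapping gene with a mean of at least 1 FPKM. For 15 of them at least 1 such gene lies on the opposite strand. MCM7, PRIM1, RFC3, FEN1 and CHAF1B overlap such a gene on the same strand, some of them in addition to one on the opposite strand. The most abundant neighbour after NACA was EIF4A2 at 269 and 303 FPKM, which overlaps RFC4. Named pseudogene copies of 7 of the 53 genes were also annotated, 11 in all, and the highest was at 0.071 FPKM.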

How the data were processed

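The series holds 2 RNA-seq libraries of HepG2 cells, 1 per group. The authors deposited FPKM per gene, in a table titled as row means, with no source here saying over what. A second table deposited by the authors holds length-scaled coverage (a signal used only to read its scale), their log2 fold change, and a p-value and its adjusted form for each gene. The submitters' processing notes name GRCh38.p13 and edgeR with no role. Aligner, counter, annotation release and strand setting were not given in the sources used. The column with the siRNA prefix was taken as the SPRTN siRNA library and the other as the control.

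Genes with a mean of at least 1 FPKM were compared as log2(FPKM + 1). Reads were recovered from FPKM and the mean transcript length in GENCODE release 29. For genes with 1 transcript, 98.5% (control) and 98.4% (SPRTN siRNA) of values up to 20 reads lay within 0.05 of a whole number. Only 9 of the 53 genes gave whole reads in both libraries, so their read numbers are approximate. Intervals (95%, exact Clopper-Pearson) treat a gene's reads as split between the libraries and cover counting error only. Their test on simulated data drew whole reads with counting error alone, so it could not check them for genes without whole reads. PCR copies are not independent molecules.

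The replication genes, the other gene lists and the limits of 1.5-fold and 2-fold were chosen with earlier results of these data known. The rule for named genes took SPRTN, the extremes of each role, and the 5 lowest and 3 highest of the further replication genes; all 53 members are named. Neighbouring genes and the subunits RNASEH2B, RNASEH2C and CHTF8 were named after their values were seen. Older symbols were matched through a gene name table. Alternatives covered the pseudocount, the filter, 3 scalings, the guide site, recovered reads scaled by the trimmed mean of M-values (TMM), and a 2-fold limit. Python 3.11.15, pandas 2.3.3, scipy 1.17.1 and matplotlib 3.10.9 were used.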

Additional observations from a re-analysis of the deposited data

How the results depend on the processing

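Under all 9 alternatives run on the values, the replication genes that remained in the comparison were lower with CDC7 as the exception: 52 of 53 were below 0, or 46 of 47 without the genes that hold the 7-base guide site. The median log2 ratio of the replication genes ran from -0.51 with recovered reads and TMM to -0.42 centred on the median gene. Those settings put the median over all genes at -0.07 and 0. The number of replication genes at least 1.5-fold lower ran from 10 (of 47, without guide site genes) to 18 with recovered reads. The shares of all genes in those settings were 4.49% and 8.70%. With a 2-fold limit the number of replication genes was 0. For the further replication genes, the number at least 1.5-fold higher was 0 in the main analysis and 1 with a pseudocount of 0.1, with no pseudocount, centred on the median gene, without mitochondrial genes, and with recovered reads. Their median was -0.39, and -0.31 without the genes that hold the guide site. Over all genes, counts at least 1.5-fold lower and higher were 742 and 666 in the main analysis and 1121 and 1037 without a pseudocount, 1140 and 981 with recovered reads, 873 and 1000 without the filter, and 546 and 312 at a mean of at least 5 FPKM, where fewer genes were tested. The cause of the other shifts was not tested. No paired analysis was possible because each group has 1 library. No library could be left out for the same reason. Each of the 53 genes had 584 or more reads in each library, which limits how finely they can be ordered, and the spread between cultures was not measured.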
